A study of Mus musculus with 4 samples.

Results

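The 9 genes described here, Tex14, Sertm1, Ecscr, Slc27a3, Nnat, Sept4, F11r, Susd2 and Arvcf, stood high in the same intestinal fibroblasts as Vegfc and are better known from other cell types or functions. They are 9 of the 18619 genes in the expression matrix and were taken by name. They had been chosen by their levels in this same library, in which they were high in the villus fibroblast clusters with high Vegfc, so those levels describe the choice and carry no test. All 9 had UMIs (unique molecular identifiers, counts of single transcripts), from 858 for F11r to 20551 for Sept4, and all 9 passed the minimum of 50 UMIs in the villus fibroblasts.

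The cells were stromal cells of the small intestine of adult C57BL/6J mice that carried Cre-ERT2 under the Pdgfrb promoter and a tdTomato reporter, and they were sorted on tdTomato. Pdgfrb marks fibroblasts, mural cells and smooth muscle cells alike, so the sort held several kinds of stromal cell. The series had 4 samples, namely 2 wild-type (WT) libraries, 1 library of LATS1/2 KO cells at 1 week (floxed Lats1 and Lats2 alleles deleted by the same Cre after tamoxifen) and 1 of LATS1/2 KO cells at 2 weeks. The LATS1/2 KO 1w library was the only 1 analysed here, so all comparisons are between cells of 1 library and nothing was tested against WT.

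LATS1 and LATS2 are the kinases of the Hippo pathway that hold the co-activators YAP and TAZ in check, and cells that lack both turn on YAP/TAZ target genes through TEAD factors. Vegfc encodes a growth factor for lymphatic vessels, among them the lacteals of the villi, and Amotl2 (angiomotin like 2) is a widely used YAP/TAZ target that itself restrains YAP. The 9 genes are known from other settings. Tex14 is needed for the bridges between germ cells, Ecscr is a surface protein of endothelial cells, Nnat (neuronatin) is an imprinted gene of the nervous system, and F11r encodes the junctional adhesion molecule JAM-A of epithelia and endothelia. Sept4 is a septin, a protein of GTP-binding filaments, Arvcf is a catenin of the p120 family that binds cadherins, and Slc27a3 belongs to the fatty acid transport proteins, which act as acyl-CoA synthetases. Susd2 is a membrane protein with a sushi domain, and Sertm1 a small serine-rich membrane protein.

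The library held 4108 cells and 46054627 UMIs, and its cells had 1965 to 35727 UMIs (median 10726). No barcode occurred more than once. Levels are given as a gene's UMIs per 1000000 UMIs summed over a set of cells (CPM). Brackets hold exact 95% intervals, which take in counting error and nothing else, and n is 1 library throughout, so no p-value was computed. A gene was called higher at a ratio of 1.5 or more. Clustering without the 9 genes, Vegfc, Vegfa, the YAP/TAZ targets and the sex-linked genes gave 10 clusters, numbered by size. Clusters 1, 2, 4 and 5 (726, 721, 685 and 565 cells) met no list of another class and are called villus fibroblasts by that exclusion (2697 cells). They held Adamdec1, a villus fibroblast gene, at 4127 to 5059 CPM against 179 CPM in the FB4-like cluster 3, but the SMC-like cluster 8 held 4236 CPM too, and the second villus marker Shisa3 did not set them apart (82.9 to 104 CPM against 126 in cluster 3), so the name rests on the exclusion and not on markers of their own. Clusters 6 (327 cells) and 10 (45 cells) held all 3 markers of vFB3, a second class of villus fibroblasts, and cluster 3 (688 cells) all 4 markers of FB4, the submucosal fibroblasts. Cluster 8 was SMC-like (smooth muscle cells), and clusters 7 and 9 were rich in markers of FB5 (subepithelial fibroblasts) and of mural cells (MC) but had markers of another class among their 10 leading genes and stayed unnamed. Of the villus clusters, cluster 2 held 2 of the 3 vFB3 markers (Mmp10 and Fhl2), where 3 were needed for the name. Cluster 4 held 2 of the 7 MC markers (Rgs5 and Notch3). These rebuilt classes may differ from those of the study. Lats1 and Lats2, the deleted genes, had 656 and 2466 UMIs, but tags at the 3-prime end need not lie in the deleted part and no WT library was read, so the deletion was not checked. The authors had removed immune and endothelial cells, and defining genes of other lineages were at or near 0 in what was left, with 0 UMIs of Pecam1, 7 of Cdh5, 22 of Ptprc, 4 of Epcam, 8 of Ddx4 and 10 of Sox10.

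Free RNA can put UMIs into cells that do not express a gene. Cells in which 5 or more Xist UMIs were found also held Y-linked UMIs, which bounded it at 10.1% of the library level, a figure that also takes in pairs of cells caught together (116 cells held both Xist and a Y-linked UMI). The bound came to 3.57 CPM for Tex14, 1.91 for Sertm1, 3.001 for Ecscr, 6.75 for Slc27a3, 3.91 for Nnat, 45.0 for Sept4, 1.88 for F11r, 2.44 for Susd2 and 5.99 for Arvcf. Levels at or below these are read as background.

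Vegfc divided the villus fibroblasts into a high and a low pair of clusters, and all 9 genes followed the same division. Clusters 2 and 4 had Vegfc levels of 243 and 211 CPM, and clusters 1 and 5 levels of only 41.4 and 43.8 CPM. Amotl2 ran the same way, with 189 and 285 CPM against 54.3 and 77.9 CPM. Of the 9 genes, 9 were at least 1.5-fold higher in the high pair, where the same held for 6.20% of the 11677 genes compared. As the genes were chosen for this contrast, nothing is read from that count. Although they took no part in the clustering, 7 of the 9 (Tex14, Sertm1, Ecscr, Slc27a3, Nnat, Sept4 and F11r) were among the 10 leading genes of cluster 2, and the other two, Susd2 and Arvcf, among those of cluster 4.

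The steepest were Tex14 and Ecscr. Tex14 was at 93.6, 53.8, 6.85 and 2.94 CPM in clusters 2, 4, 1 and 5, the last of which lay under the free RNA bound. The high pair was 14.8 (11.6–19.13) times the low pair, and after thinning of every cell to 5000 UMIs 24.7% of cells in the high pair and 1.10% in the low pair held a UMI of it (41.0% and 3.41% without thinning). In cluster 5 the germ cell gene was at background, and in clusters 2 and 4 well above it. Ecscr was at 73.8, 41.4, 4.52 and 6.04 CPM in the same order, with a ratio of 11.2 (8.79–14.5). Its share of cells was 19.98% against 1.57%.

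Sertm1 differed from the rest in that the 2 high clusters were far apart. Cluster 2 held it at 50.1 CPM (45.5–55.0) and cluster 4 at 10.2 CPM (8.11–12.7), a ratio of 4.90 (3.85–6.30) between them, against 5.76 and 3.27 CPM in clusters 1 and 5. The pooled ratio of 6.76 (5.19–8.95) therefore came mostly from cluster 2. It rests on the clustering, since it was 1.07 at resolution 1.0 and 1.31 with the immediate early genes left out, settings under which the villus fibroblasts numbered 2491 and 2530 cells. At resolution 1.0 a cluster of 335 cells had the same 7 of the 9 genes among its 10 leading genes as cluster 2 and met the vFB3 list with 3 of 3 markers, so that those cells were vFB3-like there and not villus fibroblasts. Slc27a3, the fatty acid transport protein, was at 142 and 111 CPM in clusters 2 and 4 and at 18.6 and 24.2 CPM in clusters 1 and 5, a ratio of 6.01 (5.30–6.82). Nnat was at 83.1 and 56.1 against 17.7 and 13.1 CPM, a ratio of 4.52 (3.89–5.26). Both high clusters lay above both low ones for these genes with no overlap of intervals.

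Sept4 was found in most villus fibroblasts. It stood at 902 CPM in cluster 2, 519 in cluster 4, 211 in cluster 1 and 194 in cluster 5, a ratio of 3.55 (3.40–3.70), and 86.1% of cells in the high pair and 55.6% in the low pair held a UMI of it. Unlike Tex14 and Ecscr, it was thus also present in most cells of the low pair. F11r, the junction protein, was at 37.1 and 18.2 against 12.3 and 8.82 CPM, a ratio of 2.62 (2.17–3.19), and the intervals of clusters 4 and 1 lay close together (15.3–21.4 and 9.92–15.2 CPM). F11r fell under the call at resolution 1.0, with a ratio of 1.45.

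Susd2 and Arvcf had their peak in cluster 4, as Amotl2 did. Susd2 was at 47.4 CPM in cluster 4 and 28.9 in cluster 2, against 12.7 and 18.6 in clusters 1 and 5, and Arvcf at 116 and 88.8 against 24.4 and 40.8 CPM. The ratio of cluster 2 over cluster 4 was 0.609 (0.517–0.716) for Susd2, 0.768 (0.697–0.846) for Arvcf and 0.664 (0.623–0.708) for Amotl2, below 1 in all 3, while it was above 1 for Vegfc (1.15 [1.08–1.23]) and for the other 7 genes, from 1.28 (1.18–1.40) for Slc27a3 to the value of Sertm1. Among the villus fibroblasts 7 of the 9 genes thus peaked in cluster 2 and 2 in cluster 4. Depth and markers of other classes moved along. Median UMIs per cell were 11594 in the high pair and 9751 in the low pair. All 3 vFB3 markers were higher in the high pair (Mmp10 7.44 [5.72–9.84], P2rx1 5.61 [3.05–11.3] and Fhl2 2.44 [2.29–2.60]), as were 2 of the 5 SMC markers compared (Tagln 4.16 [3.88–4.46] and Acta2 3.55 [3.36–3.75]), while Myh11 (0.822 [0.647–1.05]) and Actg2 (0.855 [0.614–1.19]) of the same list were not. Of 6 FB5 markers, 4 were higher (Foxl1 6.87 [4.01–12.6], Sox6 1.75 [1.07–2.94], Bmp5 1.61 [1.48–1.76] and Wnt5a 1.53 [1.29–1.82]) and 2 lower (Pdgfra 0.547 [0.527–0.567] and Bmp7 0.455 [0.286–0.714]). Of 4 MC markers compared, Notch3 was higher (3.87 [2.74–5.59]) and Ndufa4l2 lower (0.234 [0.116–0.442]). All 4 FB4 markers were lower in the high pair, from 0.0963 (0.0641–0.140) for Cilp and 0.158 (0.112–0.219) for Cd81 to 0.642 (0.598–0.689) for Grem1. Their part in the levels of the 9 genes was not tested.

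**Figure D1:**
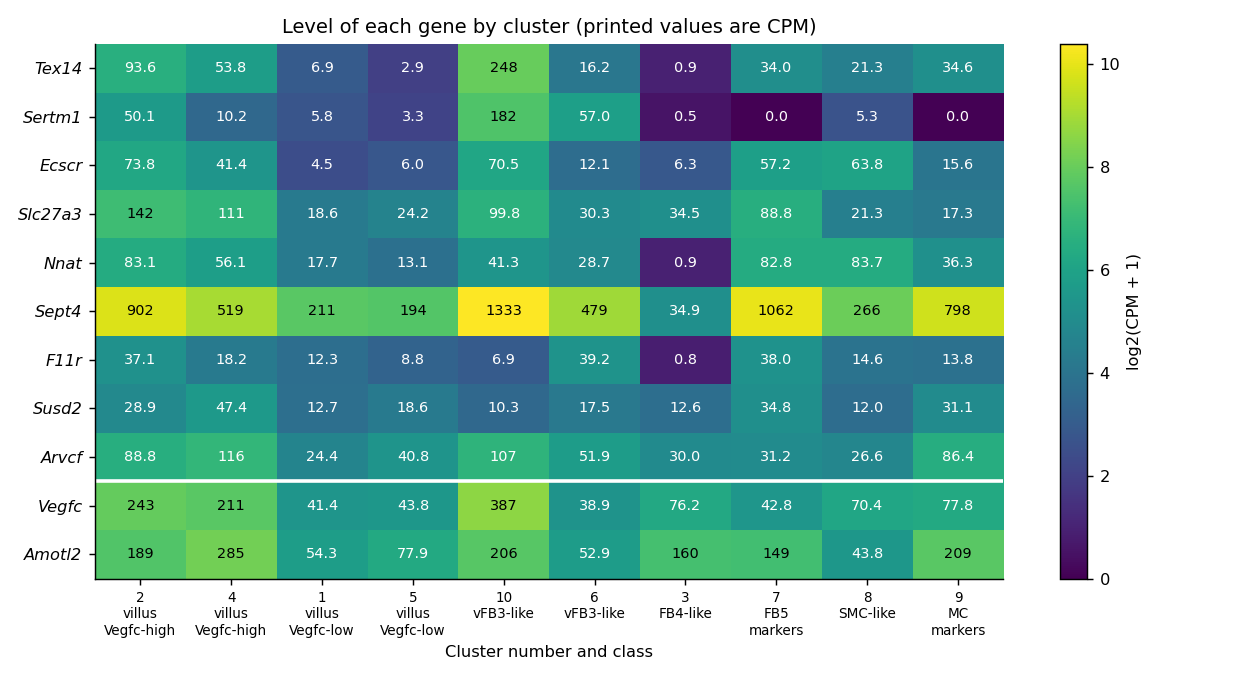
Each box gives the level in CPM of 1 gene (row) in 1 cluster (column), coloured by log2(CPM + 1), with the 9 genes above the white line and Vegfc and Amotl2 under it. Clusters 2 and 4 stand above clusters 1 and 5 in every row, and in the FB4-like cluster 3 Tex14 (0.937), Sertm1 (0.468), Nnat (0.937) and F11r (0.820) are near 0.

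A second pattern ran through the vFB3-like cells, in which some of the 9 genes were high where Vegfc was low. Cluster 6 had Vegfc at 38.9 CPM and Amotl2 at 52.9 CPM, 0.915 (0.746–1.11) and 0.813 (0.684–0.961) times the Vegfc-low villus clusters. Sertm1 in that cluster was nevertheless at 57.0 CPM, 12.3 (9.20–16.8) times the same clusters, F11r at 39.2 CPM, 3.65 (2.85–4.68) times, Tex14 at 16.2 CPM, 3.21 (2.19–4.68) times, and Sept4 at 479 CPM, 2.35 (2.21–2.51) times. For Sertm1 and F11r the intervals of cluster 6 overlapped those of the Vegfc-high cluster 2. The ratio was smaller for Ecscr (2.32 [1.52–3.49]), Nnat (1.84 [1.42–2.37]), Arvcf (1.63 [1.35–1.95]) and Slc27a3 (1.43 [1.12–1.81]), and for Susd2 the interval took in 1 (1.14 [0.828–1.54]). High Sertm1 and F11r were thus not limited to cells with high Vegfc in this library.

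Cluster 10, with only 45 cells, was the vFB3-like cluster with high Vegfc (387 CPM [338–441]) and Amotl2 (206 CPM). It had the top level over all 10 clusters of Tex14 (248 CPM [209–292]), Sertm1 (182 CPM [149–221]) and Sept4 (1333 CPM [1241–1430.3]). Against cluster 6 these were 15.2 (11.01–21.4), 3.20 (2.49–4.09) and 2.79 (2.55–3.04) times higher, and Ecscr (5.83 [3.65–9.31]), Slc27a3 (3.30 [2.34–4.62]) and Arvcf (2.05 [1.51–2.77]) were also higher. That makes 6 of 9 at or above 1.5-fold, beside 14.7% of the 7792 genes compared. F11r went the other way, at 6.88 CPM from 4 UMIs against 39.2 CPM in cluster 6, a ratio of 0.176 (0.0471–0.461). Susd2 (0.589 [0.207–1.37], 6 UMIs) and Nnat (1.44 [0.877–2.28]) had intervals that took in 1. Cluster 10 also held the endothelial marker Plvap among its leading genes, and its summed level of 13 endothelial markers was 494 CPM against 15.9 in cluster 6, with 10 of the 13 at 0, among them Pecam1, Cdh5 and Kdr. The part of those markers in the values of cluster 10 was not tested.

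**Figure D2:**
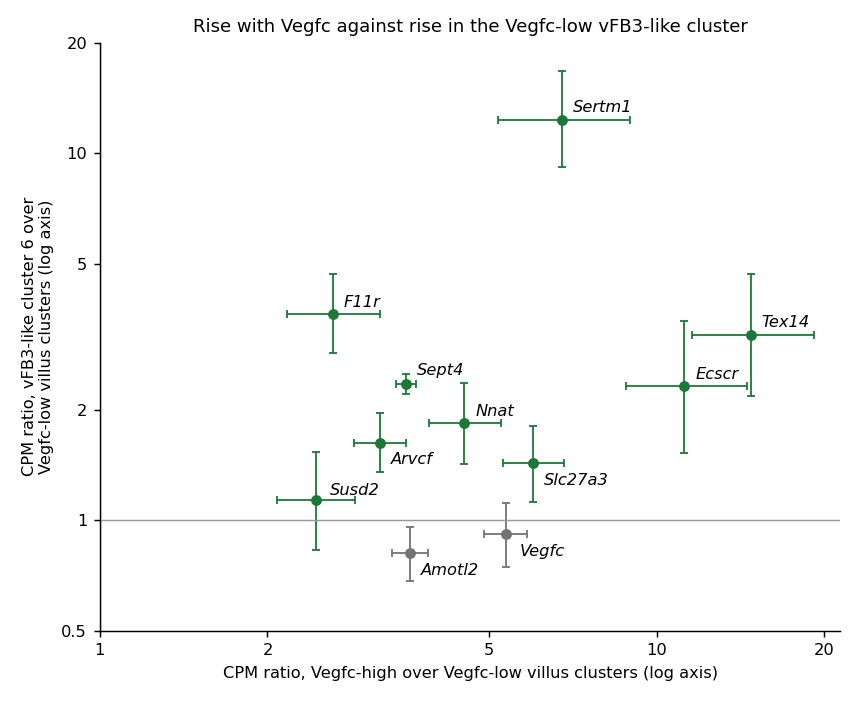
Each point is 1 gene, with its CPM ratio of Vegfc-high over Vegfc-low villus clusters on the x axis and of the vFB3-like cluster 6 over the same Vegfc-low clusters on the y axis, both log axes, bars being exact 95% intervals. Vegfc and Amotl2 (grey) lie under 1 on the y axis (the interval of Vegfc takes in 1), Susd2 close to 1, and Sertm1 (12.3) and F11r (3.65) highest.

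The other stromal classes set the 9 genes further apart. In the FB4-like cells, whose Vegfc (76.2 CPM) and Amotl2 (159.8 CPM) were above those of the Vegfc-low villus clusters, Tex14 stood at 0.937, Sertm1 at 0.468, Nnat at 0.937 and F11r at 0.820 CPM, from 4 to 8 UMIs in all 688 cells. These 4 values lay under the free RNA bounds and are read as background, so expression of the 4 genes was not detectable over the FB4-like cells as a whole. Sept4 was at 34.9 CPM over the whole cluster, also under its bound, and came close to or above it in the FB4-like cells with the most Vegfc and Amotl2. Slc27a3 (34.5 CPM [30.7–38.7]), Arvcf (29.98 CPM [26.4–33.9]), Susd2 (12.6 CPM [10.4–15.3]) and Ecscr (6.32 CPM [4.75–8.25]) were above their bounds in the same cells.

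In cluster 7, rich in FB5 markers, Vegfc was low (42.8 CPM) and Amotl2 was at 149 CPM, above the 65.1 CPM of the Vegfc-low villus clusters. Cluster 7 had Sept4 at 1062, Slc27a3 at 88.8, Nnat at 82.8, Ecscr at 57.2 and F11r at 38.0 CPM, while Sertm1 had 0 UMIs in 205 cells, which allows up to 1.20 CPM. The SMC-like cells had Nnat (83.7 CPM) and Ecscr (63.8 CPM) at levels whose intervals overlapped those of cluster 2. The 13 endothelial markers summed to 193 CPM in the SMC-like cells, with 10 at 0 including Pecam1, Cdh5 and Kdr, and to 16.3 CPM in cluster 2, and their part in the level of Ecscr was not tested. Cluster 9, rich in MC markers, had Sept4 at 798 and Arvcf at 86.4 CPM and again 0 UMIs of Sertm1 (up to 5.18 CPM). Over the 10 clusters Nnat was thus highest in the SMC-like cells, F11r in cluster 6, Susd2 and Arvcf in cluster 4, Ecscr and Slc27a3 in cluster 2, and Tex14, Sertm1 and Sept4 in cluster 10. The intervals of neighbours in that order overlapped for 2 of 9 pairs with Sept4, for 5 with Tex14 and Sertm1, for 6 with Ecscr and Nnat, for 7 with Slc27a3 and F11r and for 8 with Susd2 and Arvcf, whose order is therefore the least settled.

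The villus fibroblasts were next divided by the detection of Vegfc in each cell. After thinning to 5000 UMIs, 1043 villus fibroblasts held a Vegfc UMI and 1607 did not. In cells with a Vegfc UMI Tex14 was at 66.7 against 18.7 CPM, a ratio of 3.57 (2.94–4.36), Sertm1 at 28.0 against 8.71 CPM (3.21 [2.40–4.34]) and Ecscr at 46.4 against 17.5 CPM (2.64 [2.14–3.28]). Slc27a3 (2.36 [2.07–2.70]), Nnat (2.17 [1.83–2.58]), Sept4 (1.95 [1.85–2.05]), Arvcf (1.79 [1.56–2.05]) and F11r (1.60 [1.24–2.06]) followed, and Susd2 stayed just under the call at 1.48 (1.19–1.84). That is 8 of 9 genes, beside 3.36% of the 10560 genes compared, with a median log2 ratio of 1.12 over the 9 and 0.002 over all. The genes had been chosen for high levels beside Vegfc among these same cells, so the split is not independent of the choice and nothing is read from this count either, nor from those by Amotl2, which went with Vegfc at a ratio of 1.84 (1.68–2.01).

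Split by Amotl2 (1138 cells with a UMI, 1512 without), the order of the genes changed. Ecscr now led with 46.0 against 16.0 CPM, a ratio of 2.88 (2.31–3.599), followed by Tex14 (2.31 [1.92–2.78]), Slc27a3 (2.12 [1.85–2.42]), Nnat (1.93 [1.62–2.29]), Arvcf (1.90 [1.65–2.18]), Susd2 (1.68 [1.34–2.09]) and Sept4 (1.62 [1.54–1.71]). Sertm1 was at 1.57 (1.19–2.07) and F11r at 1.34 (1.04–1.73). The count was again 8 of 9, beside 3.33% of the 10560 genes compared. The call for Sertm1 depended on the setting, since its ratio was 0.961 when cells of the M and F columns were first integrated, 0.968 in cells with Xist and no Y-linked UMI, and 0.944 with 2000 UMIs per cell. In the cells that held a Y-linked UMI without Xist it was 2.72 (1.68–4.52). The count itself was 5 of 9 in the cells with Xist and 9 of 9 in those with a Y-linked UMI, where the ratios ran from 1.53 (1.02–2.28) for F11r to 4.63 (2.89–7.65) for Ecscr.

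**Figure D3:**
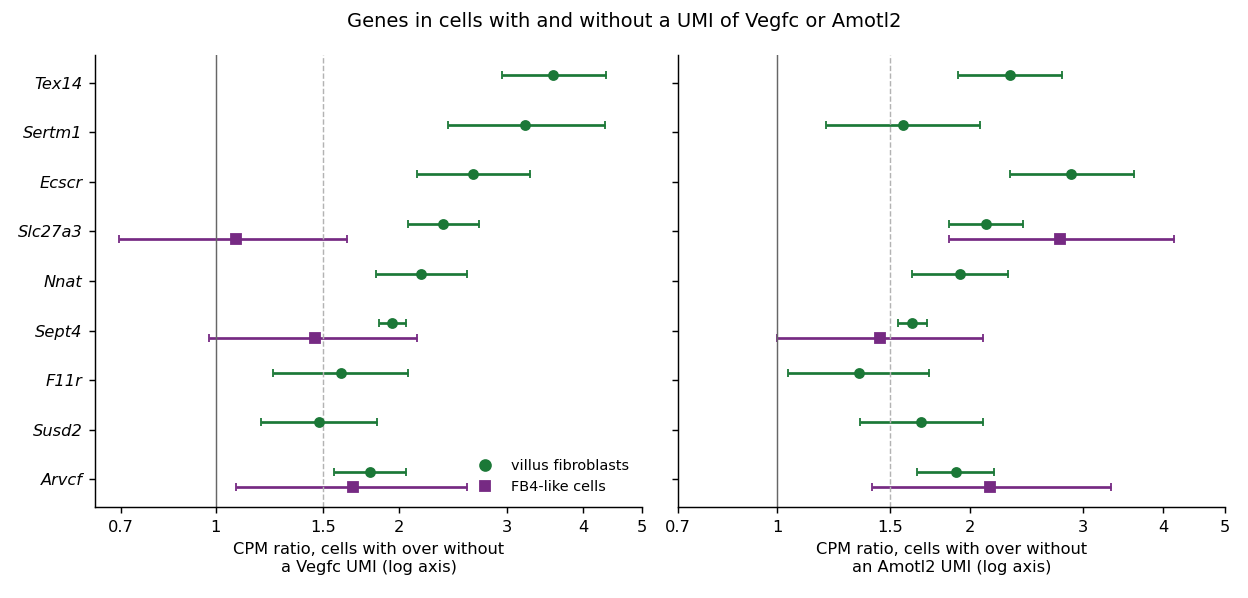
CPM ratio of each gene between cells with and without a UMI of Vegfc (left) or Amotl2 (right), on log axes, for villus fibroblasts (green circles) and FB4-like cells (purple squares), with exact 95% intervals. Points are drawn for genes with at least 50 UMIs, all 9 in villus fibroblasts and 3 (Slc27a3, Sept4 and Arvcf) in FB4-like cells. The solid line is 1 and the dashed line 1.5.

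Cells with a UMI of both Vegfc and Amotl2 (601) were compared with the 1070 cells that had neither. All 9 genes passed 1.5-fold there, beside 6.18% of the 9706 genes compared, led by Ecscr (7.30 [5.12–10.7]) and Tex14 (7.06 [5.24–9.64]). As the genes were chosen for high levels beside Vegfc among these cells, nothing is read from that count. Sertm1 was raised with Vegfc alone, at 2.90 (1.92–4.42) in 442 cells, but had a ratio of 1.11 (0.651–1.84) in the 537 cells with Amotl2 alone. F11r was at 1.68 (1.16–2.42) and 1.33 (0.910–1.93), with intervals that overlapped. For Ecscr (5.09 [3.44–7.66] and 5.21 [3.57–7.74]), Susd2 (1.82 [1.30–2.55] and 2.04 [1.49–2.78]) and Arvcf (1.94 [1.56–2.41] and 2.04 [1.67–2.50]) either gene alone went with a ratio of about the same size.

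The level of most of the 9 genes also grew with the number of Vegfc UMIs, a split that is not independent of their choice either. With 0, 1, 2 and at least 3 Vegfc UMIs per 5000 (1607, 623, 245 and 175 cells), Tex14 went through 18.7, 54.3, 75.1 and 99.4 CPM, Sertm1 through 8.71, 19.9, 33.5 and 49.1 CPM and Sept4 through 325, 552, 668 and 877 CPM. Slc27a3 (46.2, 93.7, 121 and 146 CPM), Ecscr (17.5, 35.3, 62.0 and 64.0 CPM) and F11r (15.6, 19.9, 26.9 and 40.0 CPM) were higher at each step too, although the intervals of neighbouring steps overlapped for some of them. Nnat reached its upper level with the first Vegfc UMI (28.9, 62.6, 59.6 and 67.4 CPM), Arvcf was highest with 2 (49.7, 76.7, 112 and 99.4 CPM), and Susd2 was no higher with 3 or more than with 1 (21.4, 33.4, 31.8 and 25.1 CPM). By Amotl2 UMIs the set of genes was partly another. Susd2 was higher at each step (19.7, 28.7, 31.9 and 50 CPM), as did Arvcf (47.0, 77.8, 91.1 and 126 CPM), Slc27a3 and Ecscr, while F11r (16.8, 22.8, 22.2 and 21.9 CPM) and Sertm1 (13.1, 19.5, 23.0 and 20.8 CPM) changed little after the first UMI. Tex14 (24.1, 54.1, 54.1 and 62.5 CPM), Nnat (30.2, 46.7, 77.0 and 71.9 CPM) and Sept4 (352, 546, 639 and 574 CPM) did not climb at each step.

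**Figure D4:**
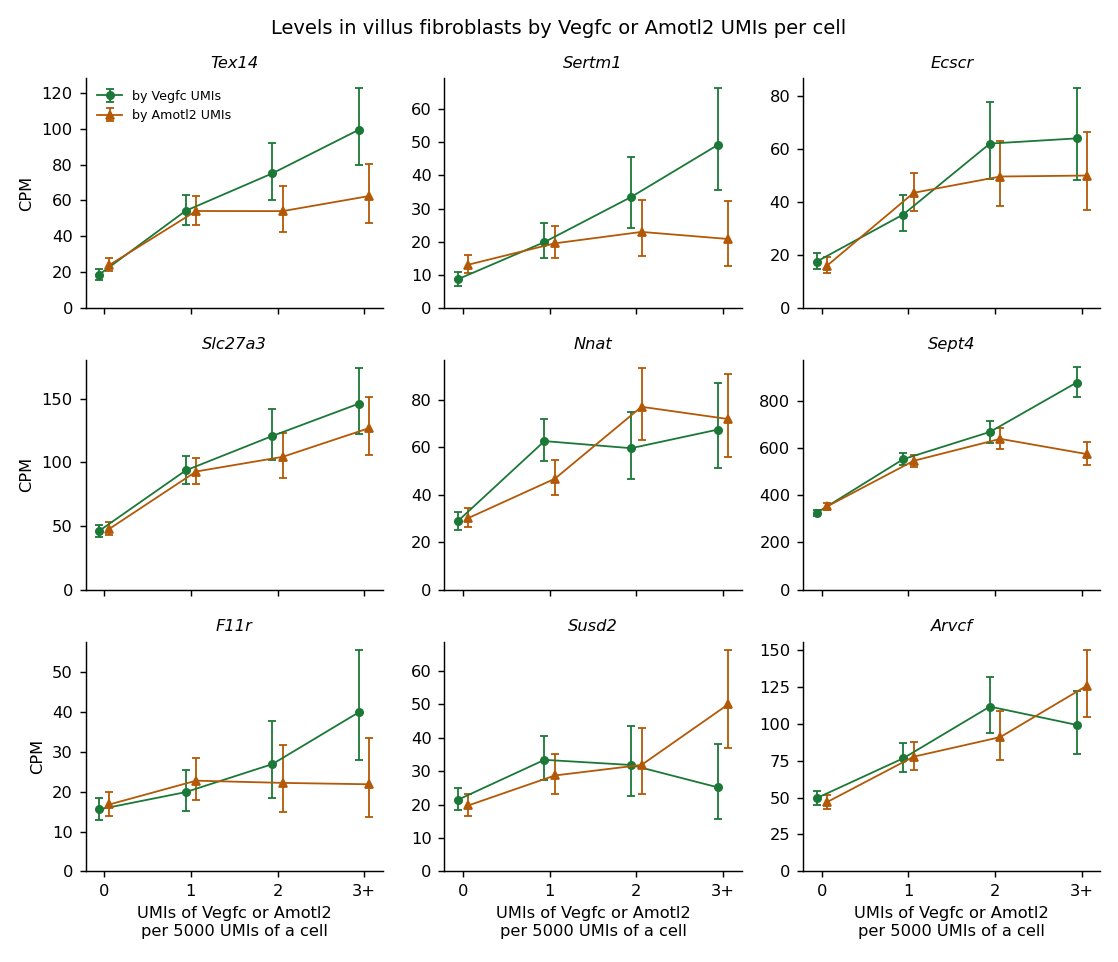
Level in CPM of each gene in villus fibroblasts by the number of Vegfc UMIs (green circles) or Amotl2 UMIs (brown triangles) among 5000 UMIs of a cell, with exact 95% Poisson intervals. Sertm1 reaches 49.1 CPM with 3 or more Vegfc UMIs and 20.8 CPM with 3 or more Amotl2 UMIs, and Susd2 25.1 and 50 CPM.

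Inside clusters 2 and 4, which held most of the cells with a Vegfc UMI, the ratios were mostly closer to 1 than over the pooled villus fibroblasts, so that the pooled ratios also carry which cluster a cell was in. In cluster 2 the ratio between cells with and without a Vegfc UMI (451 and 260 cells) ran from 0.774 (0.489–1.24) for Susd2 and 0.865 (0.601–1.25) for F11r to 1.53 (1.17–2.01) for Nnat and 1.67 (1.17–2.44) for Sertm1, and in cluster 4 (398 and 267 cells) from 0.830 (0.612–1.13) for Nnat to 1.89 (1.32–2.74) for Tex14 among the 8 genes with at least 50 UMIs. The interval took in 1 for 5 of 9 genes in cluster 2, among them Ecscr (1.26 [0.953–1.68]), and for 7 of 8 in cluster 4, all but Tex14. Amotl2 was at 1.03 (0.876–1.22) and 1.01 (0.887–1.16). In clusters 1 and 5, with 102 and 92 Vegfc-positive cells, Sept4 was at 1.26 (1.03–1.53) and 1.15 (0.907–1.44). Cluster 1 also had enough UMIs of Nnat, at 2.01 (1.04–3.67), Slc27a3, at 1.90 (0.904–3.72), and Arvcf, at 1.63 (0.929–2.74), values close to those over the pooled villus fibroblasts but with wide intervals. Cluster 5 had enough of Slc27a3 (1.37 [0.682–2.57]), Susd2 (1.48 [0.709–2.88]) and Arvcf (0.875 [0.458–1.55]), and all 3 intervals took in 1. Of 36 pairs, 30 were found together in more cells than the frequencies inside each cluster give, but the median was only 1.08 times the expected number, against 1.34 times over the pooled villus fibroblasts. The interval lay above 1 for 3 pairs, namely Sertm1 with F11r (34 cells against 23.2 expected, 1.46 times [1.01–2.05]), Tex14 with F11r (62 cells against 46.0 expected, 1.35 times [1.03–1.73]) and Tex14 with Slc27a3 (180 cells against 152 expected, 1.18 times [1.02–1.37]), and below 1 for 0 pairs. Per cell, 53.3% of the Vegfc-high villus fibroblasts held UMIs of at least 3 of the 9 genes, against 5.57% of the Vegfc-low ones and 1.03% of the FB4-like cells. Other clusters with less Vegfc than clusters 2 and 4 lay in between, at 38.5% in cluster 7, 26.5% in cluster 9 and 22.9% in cluster 6. The genes were chosen for high levels in the Vegfc-high clusters, so nothing is read from the share there.

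In the FB4-like cells only part of the group could be compared. Of 677 cells with at least 5000 UMIs, 178 held a Vegfc UMI, and 3 of the 9 genes reached 50 UMIs. Arvcf was at 40.4 against 24.0 CPM, a ratio of 1.68 (1.08–2.58), the 1 gene of the 3 past 1.5-fold, beside 3.61% of the 6879 genes compared. Sept4 was at 1.45 (0.977–2.14) and Slc27a3 at 1.08 (0.695–1.64). By Amotl2 (274 cells with a UMI) Slc27a3 was at 54.7 against 19.9 CPM, a ratio of 2.76 (1.85–4.16), and Arvcf at 2.15 (1.41–3.32), 2 of the 3 and beside 5.64% of 6879 genes, while Sept4 had 1.45 (0.999–2.09). In cells with Amotl2 and no Vegfc UMI, against those with neither, Slc27a3 was still at 3.42 (2.13–5.60). Arvcf (1.43 [0.824–2.44]) and Sept4 (1.39 [0.873–2.21]) were under the call there, with intervals that took in 1. The count by Vegfc rests on few UMIs and was 4 of the 5 genes then compared without thinning and 2 of 3 with nothing regressed out before clustering. With both UMIs (92 cells) against neither (317), 2 genes had enough UMIs, and both Arvcf (3.13 [1.85–5.30]) and Sept4 (1.91 [1.12–3.19]) passed, beside 9.10% of 5089 genes. Sept4 was at 54.3 CPM there from 25 UMIs, just above its free RNA bound, against 28.4 CPM, which is at background.

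At resolution 1.0 the FB4-like cells parted into a cluster of 186 cells with Vegfc at 149.6 CPM and 1 of 502 cells with 46.0 CPM, and Amotl2 was 4.80 (4.29–5.39) times higher in the first. Slc27a3 was at 80.2 against 15.7 CPM (5.11 [3.98–6.59]), Arvcf at 55.8 against 19.4 CPM (2.88 [2.24–3.72]) and Susd2 at 22.5 against 8.601 CPM (2.61 [1.76–3.89]). Ecscr (1.94 [1.09–3.43]) and Sept4 (1.61 [1.27–2.04]) passed as well, so that 5 of the 5 genes with enough UMIs did, beside 6.16% of 9543 genes, although Sept4, at 47.7 against 29.6 CPM, was near its free RNA bound in the first cluster and under it in the second. Tex14, Sertm1, Nnat and F11r had 2, 1, 0 and 4 UMIs in the Vegfc-high cluster. In the villus fibroblasts at the same resolution 7 of the 9 genes passed, all but Sertm1 (1.07) and F11r (1.45), with smaller ratios than at resolution 0.5, such as 5.09 for Tex14 and 5.43 for Ecscr. The share over all genes is not given for that setting, and the genes were chosen for this contrast, so nothing is read from the count. Slc27a3, Arvcf, Susd2 and Ecscr, all above their free RNA bounds in both FB4-like clusters, were higher in Vegfc-high clusters of both classes at resolution 1.0. The FB4-like clusters differed more in Amotl2 (4.80) than in Vegfc (3.25 [2.78–3.81]). By Vegfc UMI in FB4-like cells Arvcf was at 1.68 (1.08–2.58), but Slc27a3 at 1.08 (0.695–1.64). In the 15 FB4-like cells with 3 or more Vegfc UMIs, Tex14 had 3 UMIs in 2 cells, 40 CPM (8.25–117), which is above its bound. With 0, 1 and 2 Vegfc UMIs it had 1, 0 and 0 UMIs. As the value rests on 2 cells and no doublet caller was run, nothing is read from it.

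The library held cells of both sexes, so at least 1 animal of each. With the villus fibroblasts divided into those with Xist and no Y-linked UMI (1350 cells) and those in which the reverse held (986), all 9 genes were above 1 in both sets in the cluster contrast, with 9 of 9 intervals above 1 in both. In that contrast Tex14 was at 14.3 (9.91–21.3) in the cells with Xist and 42.6 (22.2–93.8) in the others. The second value rests on 9 UMIs in the Vegfc-low cells, 1.75 CPM, which is under the free RNA bound, so its size is not settled. Sertm1 was at 5.90 (4.02–8.96) and 13.6 (7.74–26.0), with intervals that overlapped. By Vegfc UMI all 9 ratios were above 1 in both, and 7 had intervals above 1 in both. The exceptions were F11r, at 1.39 (0.960–2.02) in the cells with Xist and 2.02 (1.35–3.03) in those with a Y-linked UMI, and Susd2, at 1.21 (0.901–1.63) and 1.81 (1.20–2.75). Tex14 by Vegfc UMI was at 3.18 (2.48–4.11) and 3.82 (2.64–5.61). By Amotl2 UMI 8 of 9 ratios were above 1 in both sets, Sertm1 being the exception, and 6 had intervals above 1 in both. The difference between the sexes was not tested. As the genes were chosen among these same cells and no share over all genes stands beside these counts, nothing is read from them.

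The 9 genes lie on 7 chromosomes of mm10, with GENCODE M21 annotation, and all are protein coding. They are Tex14 (ENSMUSG00000010342, chromosome 11, 87405065 to 87555823, plus strand), Sept4 (ENSMUSG00000020486, chromosome 11, 87568903 to 87590539, plus strand), Sertm1 (ENSMUSG00000056306, chromosome 3, 54897068 to 54915887, minus strand), Slc27a3 (ENSMUSG00000027932, chromosome 3, 90385239 to 90389938, minus strand), Nnat (ENSMUSG00000067786, chromosome 2, 157560078 to 157562522, plus strand), F11r (ENSMUSG00000038235, chromosome 1, 171437535 to 171464603, plus strand), Susd2 (ENSMUSG00000006342, chromosome 10, 75636706 to 75644008, minus strand), Arvcf (ENSMUSG00000000325, chromosome 16, 18348182 to 18407076, plus strand) and Ecscr (ENSMUSG00000073599, chromosome 18, 35713086 to 35722356, minus strand). Tex14 and Sept4 are next to each other on the same strand, with 13079 bases between the end of Tex14 and the start of Sept4, and Gm11492, a gene with 0 UMIs, reaching from the gap into Sept4. Tex14 had a ratio of 14.8 (11.6–19.13) and Sept4 of 3.55 (3.40–3.70), but the following gene Mtmr4 was at 1.34 (1.03–1.76), and Rad51c, whose start lies 110 bases from that of Tex14 on the other strand, had 42 UMIs in the library. Reads from the 3-prime ends of transcripts do not show where a transcript began, so a transcript that runs from Tex14 into Sept4 could not be looked for.

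**Figure D5:**
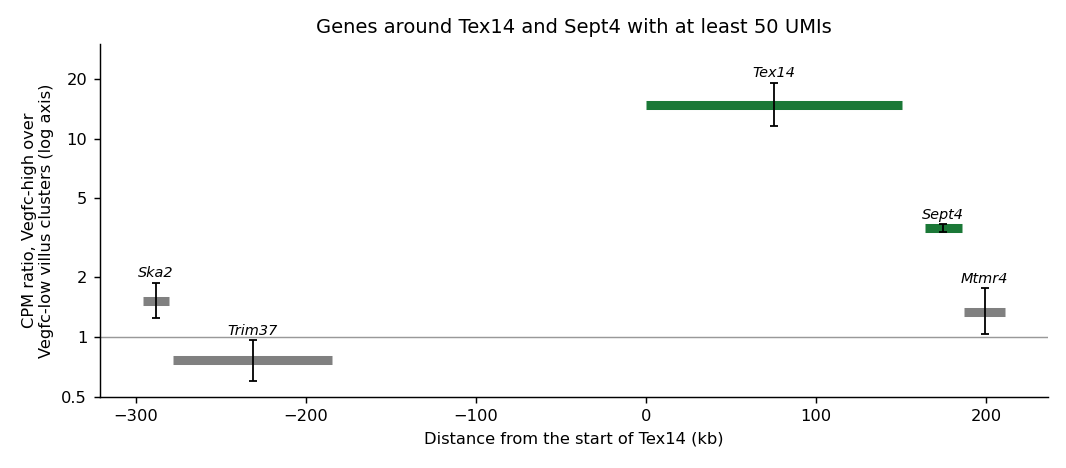
Genes with at least 50 UMIs in the villus fibroblasts within 300 kb of the start of Tex14, drawn as bars along the distance from that start (kb), at the height of their CPM ratio of Vegfc-high over Vegfc-low villus clusters (log axis) with exact 95% intervals. Tex14 (14.8) and Sept4 (3.55), in green, stand above Ska2 (1.53), Trim37 (0.763) and Mtmr4 (1.34), in grey, of which Ska2 also passes 1.5.

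The flanking genes did not share the pattern as a rule. Of 36 genes in the file that overlap 1 of the 9 or are the nearest 2 on either side, 24 had at least 50 UMIs, and 1 of these was at least 1.5-fold higher in the Vegfc-high villus clusters (Spata24 near Ecscr, 1.92 [1.41–2.65]) and 4 at least 1.5-fold lower. Nnat lies inside Blcap on the opposite strand, and Blcap was at 1.31 (1.15–1.49) where Nnat had 4.52 (3.89–5.26). Ska2, farther from Tex14 and outside that set, was at 1.53 (1.24–1.88). The neighbours of Susd2 ran against it, with Ggt5 at 0.461 (0.432–0.491) and Cabin1 at 0.520 (0.449–0.601). Dnajc18 (1.14 [0.975–1.33]) and Tmem173 (0.952 [0.795–1.14]), on either side of Ecscr, were close to 1.

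Most relatives of the 9 genes did not move with them in the contrast of Vegfc-high against Vegfc-low villus clusters, where the median log2 ratio of all genes compared was -0.006. These lists were put together with results of this library known and hold the 9 genes themselves. Beside the top and bottom gene of each, those named were chosen after their values were seen. Of 9 septins, 4 were at least 1.5-fold higher and 0 lower (median log2 ratio 0.15), Sept4 at the top with Sept7 (2.68 [2.60–2.76]), Sept11 (2.39 [2.28–2.51]) and Sept8 (2.08 [1.89–2.28]) behind it and Sept6 (0.823 [0.641–1.06]) at the bottom. Of 9 acyl-CoA synthetases and fatty acid carriers, 2 were higher (median 0.07). These were Slc27a3 and the fatty acid binding protein Fabp5 (5.75 [4.17–8.11]), whereas the sister transport proteins Slc27a4 (1.07 [0.840–1.36]) and Slc27a1 (0.845 [0.689–1.04]) stayed near 1 and Acsl4 was lowest (0.833 [0.736–0.942]). Of 12 genes of the JAM family and of tight junctions, 2 were higher (median -0.09), Nectin2 (2.71 [2.29–3.23]) and F11r, while Jam2 (0.910 [0.774–1.07]), Jam3 (1.06 [0.964–1.16]) and Tjp1 (0.914 [0.822–1.02]) were not.

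Of 9 catenins and cadherins, 2 were higher, Arvcf and Cdh6 (2.43 [1.27–4.97]), and 1 lower, Jup (0.655 [0.597–0.718]), with a median of 0.40. The close relative Ctnnd1 (p120-catenin) was at 1.06 (0.942–1.19). Of 6 sushi domain genes, 2 were higher (Srpx, 2.70 [2.44–2.99], and Susd2) and 2 lower, down to Sned1 (0.238 [0.177–0.318]), with a median of -0.04. Of 15 imprinted genes, 1 was higher (Nnat) and 0 were lower (median 0.16), from Snrpn (1.45 [1.18–1.79]) in second place to Cdkn1c (0.679 [0.599–0.768]). The YAP/TAZ targets, which hold Amotl2, had 11 of 22 higher and 1 lower (median 0.54), with Ajuba (4.21 [3.08–5.86]) at the top, Ctgf at 3.35 (2.99–3.77) and Gadd45a (0.645 [0.561–0.743]) at the bottom. Immediate early genes, which cells turn on quickly after many stimuli, ran the other way, with 0 of 14 higher and 10 lower (median -0.74), from Fosl2 (1.04 [0.928–1.17]) to Ier2 (0.427 [0.404–0.4502]). Their part in the levels of the 9 genes was not tested, beyond the clustering without them given above.

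Markers of the tissues the genes are known from were counted beside them. In the Vegfc-high and Vegfc-low villus clusters the summed level of 11 germ cell genes in the file was 2.54 and 2.76 CPM, of 13 endothelial markers 16.5 and 20.1 CPM, of 9 epithelial markers 5.68 and 6.04 CPM, and of 8 glial and neuronal markers 3.99 and 5.89 CPM. No interval is given for these 4 sums, so no difference between the pairs is read from them. Germ cell genes summed to 2.26 CPM in the 354 villus fibroblasts with a Tex14 UMI and 3.05 CPM in the 2296 without, a ratio of 0.741 (0.191–2.07), 2 of 11 being at 0. Endothelial markers summed to 16.3 CPM in the 295 villus fibroblasts with an Ecscr UMI and 17.7 CPM in the 2355 without, a ratio of 0.917 (0.574–1.40), 3 of 13 being at 0 including Pecam1. Epithelial markers summed to 4.33 CPM in the 231 villus fibroblasts with an F11r UMI and 6.04 CPM in the 2419 without, a ratio of 0.717 (0.226–1.75), 5 of 9 being at 0. Glial and neuronal markers summed to 3.56 CPM in the 337 villus fibroblasts with an Nnat UMI and 4.50 CPM in the 2313 without, a ratio of 0.792 (0.278–1.84), 2 of 8 being at 0. Cells with a UMI of Tex14, Ecscr, F11r or Nnat thus carried no excess of the matching markers that could be detected at this depth. The summed level of 8 immune markers was higher in the high pair, at 57.1 against 40.9 CPM, through Lyz2 (31.1 against 9.32 CPM). The other immune markers compared, Cd74 and Cd68, were at ratios of 0.849 (0.707–1.02) and 0.727 (0.565–0.936).

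Over the 10 clusters, the genes most like each of the 9 were sought among 10383 genes with at least 200 UMIs by Pearson's r of log2(CPM + 1), as a description over clusters that share 1 library. Tex14 was closest to Nedd9 (0.96), 2610008E11Rik (0.95) and Map2k2 (0.95), and Sept4 to Spry1 (0.97), Pyurf (0.97) and Ube2e3 (0.95). Sertm1 was closest to Col22a1 (0.96), Casp1 (0.94) and 0610040B10Rik (0.94), Ecscr to Nhp2 (0.93), Psmc3 (0.93) and Phb (0.92), Slc27a3 to Tpst2 (0.94), Tmsb10 (0.94) and F2r (0.92) and Nnat to Tsen54 (0.91), Pawr (0.90) and Fhl2 (0.90). F11r was closest to Gm10561 (0.92), Prkd1 (0.92) and Pde1c (0.89), Susd2 to Prelp (0.95), Zrsr1 (0.89) and Ivd (0.89) and Arvcf to Gpc6 (0.97), Peak1 (0.92) and Tbl1x (0.92). None of the 9 was among the 3 closest to another. Among themselves Tex14 and Sept4 (0.90), Nnat and Sept4 (0.85) and Tex14 and Ecscr (0.84) were closest, and Sertm1 and Susd2 (-0.28) farthest apart. With Vegfc r ran from -0.09 for F11r to 0.78 for Arvcf.

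Start regions were searched for the TEAD motif GGAATG and the AP-1 motif TGANTCA, on both strands. The reason was the Cre-driven deletion, in the sorted cells, of the kinases that restrain the TEAD partners YAP and TAZ. That deletion was not checked here. RefSeq windows on GRCm38.p6 of 250 bases before and 50 after a start were searched for 7 of the 9 genes, 12 windows in all. No window of Susd2 or Ecscr was searched, so nothing is read about their starts. GGAATG was found in 2 of the 12 windows, 1 of Sept4 and 1 of Arvcf, and in 14.7% of all 32851 windows searched. TGANTCA was found in 1, of F11r, and in 7.81% of all. The windows of Tex14, Sertm1, Slc27a3 and Nnat held neither. Amotl2 held GGAATG too, and Vegfc neither. The 4 matches are shown as the 30 bases around each, as the only letters in these windows that match either motif, with the match in capitals (CATTCC is GGAATG on the other strand):
Sept4, chr11:87580990-87581019, plus strand: ggtggagaagaaCATTCCacagagacaaag
Arvcf, chr16:18348016-18348045, plus strand: ctgcagccacagCATTCCgggcaggtgtca
Amotl2, chr9:102717727-102717756, plus strand: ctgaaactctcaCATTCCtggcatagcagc
F11r, chr1:171437440-171437469, plus strand: acctgcgtacggTGAGTCActcatcggagc
The match lay 59 bases before an internal start of Sept4, 154 before the start of Arvcf, 65 before that of Amotl2 and 109 before that of F11r. These are matches of letters and were not measured as bound sites.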

How the data were processed

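Single-cell libraries (10x Chromium, 3-prime tags) were made from tdTomato-sorted intestinal stromal cells, and the analysis rests on 1 of 4, LATS1/2 KO 1w. Those of WT and of LATS1/2 KO 2w cells are not used here. Per the submitters' processing notes the authors aligned reads to mm10 with Cell Ranger 3.0.2 and used Seurat 3.0.1, and they removed cells outside their limits on genes and mitochondrial reads as well as immune and endothelial cells before deposit. The deposited values were natural logs of 1 + UMIs per 10000 UMIs of a cell. UMI counts were recovered from them, since dividing nonzero values by that of 1 UMI gave whole numbers for 100.00% of them (tolerance 0.001), and the planned analysis of counts was run on these. Every cell in the matrix was kept (1983 in columns marked M and 2125 in columns marked F, which the authors had split by Xist) and no doublet caller was run. Cells had 1128 to 5995 genes and at most 7.00% mitochondrial UMIs.

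Cells were clustered in Seurat 5.3.0 (R 4.3.3) with UMI count and mitochondrial percent regressed out, 2000 variable genes less 27 (those of the 9 genes, Vegfc, Vegfa, the YAP/TAZ targets and the sex-linked genes that were among them), 30 principal components and resolution 0.5. Markers were credited to a cluster if 10% or more of the cells held a UMI and the level was 2 or more times the median over the remaining clusters. A class needed 3 such markers and no marker of another stromal class among the 10 leading genes. Naming in this way was settled with the levels of the clusters in view. Vegfc-high clusters were those above the pooled Vegfc level of the villus clusters. Ratios were of CPM, with exact conditional binomial 95% intervals, levels had exact Poisson and shares exact Clopper-Pearson intervals, and a count of 0 was read as allowing 3 counts. Genes with at least 50 UMIs over both sets of cells were compared, so that a gene low in both sets dropped out. To compare cells by a UMI of Vegfc or Amotl2, each cell was thinned to 5000 UMIs, and 94 shallower cells were left out. With 1 library no test over samples was possible. Ratio and interval code was tested on simulated data (Python 3.11.15, numpy 2.4.6, scipy 1.17.1).

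The 9 genes and all lists were chosen with earlier results of these data known. By rule the genes named were the 9, Vegfc and Amotl2, the top and bottom gene of each list, the 3 genes most like each of the 9, and the 2 flanking genes on each side, and further members of lists were named after their values were seen. Alternatives were other clustering settings, depth, filters, thinning, folds and cells by sex, and 3 (M and F columns integrated, removal of cells that held Xist together with a Y-linked UMI, vFB3-like clusters counted as villus fibroblasts) were added after seeing the data. Some genes that this rule would name are not reported here.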

Additional observations from a re-analysis of the deposited data

How the results depend on the processing

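Of 570 alternative values of single ratios, 391 stayed inside the interval of the reported ratio, 176 left it and 3 changed direction. Of 390 alternative values of single ratios that were at least 1.5 as reported, 387 stayed above 1 and 363 stayed at or above 1.5. The 3 that turned were all of Sertm1 by Amotl2 UMI in villus fibroblasts, 1.57 as reported, which was 0.961 with M and F columns integrated, 0.968 in cells with Xist and no Y-linked UMI and 0.944 after thinning to 2000 UMIs. Of 76 alternative counts of the 9 genes, 65 were within 1.5 times the reported one. The count by Amotl2 UMI in villus fibroblasts (8 of 9) was 5 in cells with Xist and no Y-linked UMI, 5 after thinning to 2000 UMIs and 3 with a fold of 2 for a call, and the count by Vegfc UMI there (8 of 9) was 5 with a fold of 2. In FB4-like cells the count by Vegfc UMI (1 of 3) was 2 with nothing regressed out, 2 with M and F columns integrated, 2 without cells that hold both Xist and a Y-linked UMI, 0 with a fold of 2 and 4 of 5 without thinning, and the count by Amotl2 UMI (2 of 3) was 1 of 2 in cells with 8000 to 14000 UMIs and 4 of 5 without thinning. No value could be had for either FB4-like count in Y-linked cells free of Xist or after thinning to 2000 UMIs, where none of the 9 genes reached 50 UMIs. Beyond the number of UMIs, the fold and the number of cells that an alternative itself changes, the cause was not tested. The cluster contrast stayed at 7 to 9 of 9. No replicate could be left out with 1 library, and depth limits the genes that are rare in FB4-like cells. No paired analysis was possible because 1 library was analysed.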
